A study of Mus musculus with 6 samples.

Results

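The genes described here are 10 genes of autophagy and mitophagy, namely Pink1, Bnip3l, Fundc1, Sqstm1, Map1lc3a, Map1lc3b, Gabarap, Gabarapl2, Ulk1 and Atg7, and their RNA was compared between platelets of AML mice and of WT mice. They were taken from the deposited expression table by gene symbol. All 10 were among its 14975 genes. Of the 10, 9 reached a mean of at least 1 FPKM, as did 4412 genes of the whole table (FPKM, fragments per kilobase of gene, divided by a size assigned to each library, which for AML 3 was not its number of reads). Ulk1, with a mean of 0.812 FPKM, did not and is given by its values. The 9 genes above this level were not detectably different between the groups at the threshold used. Gabarap, which lay lower in AML platelets, was the one of the 9 whose groups stayed apart under each of the 3 ways of scaling that were compared for overlap. Lower groups without overlap were also found for 12.8%, 9.77% and 8.28% of all tested genes under these scalings taken singly. How many of all genes did so under all 3 was not counted.

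Autophagy encloses cytoplasm in a double membrane, the autophagosome, and delivers it to the lysosome. The ULK kinase starts the process, and small proteins of the ATG8 family (the LC3 and GABARAP proteins) are then attached to lipid of the growing membrane by an enzyme cascade that begins with ATG7. In mitophagy the cargo is a mitochondrion. It is marked either through the kinase PINK1 and ubiquitin, or by receptors in its outer membrane such as BNIP3L (also called NIX) and FUNDC1, which bind ATG8 proteins directly. Platelets have no nucleus, so their RNA was inherited from the megakaryocyte. BNIP3L is best known for the clearing of mitochondria from maturing red blood cells.

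There were 3 libraries labelled WT and 3 labelled AML, all from blood platelets of mice on a C57BL/6 background. The study's methods describe the donors as female mice of 8 to 12 weeks. The labels give neither a treatment nor a time. According to the paper, the RNA came from pre-AML mice and from transplanted controls. The pre-AML mice were studied 1 week after sub-lethal irradiation and transplantation of cells carrying a retroviral MLL-AF9 fusion oncogene. The controls were irradiated too, received normal bone marrow and were studied at the same time points. The series text speaks of 2 replicates and of pools of 3 to 4 mice, the methods of 3 mice, so whether a library is 1 mouse or a pool is not settled, and p-values measure the spread between these libraries. MLL-AF9 here is expressed from a virus and not from its own locus, and the labels do not say which platelets descend from transplanted cells.

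The number of reads on listed genes, recovered from the FPKM values, was between 11936010 and 17778984 per library, with the highest in AML 3. AML 3 stood apart in a principal component analysis, at 41.9 on a first component that held 70.2% of the variance, while the other libraries lay between -12.7 and -2.12. All 12 genes of a platelet marker list were detected in each library. Their summed level was between 90548 and 114502 FPKM in WT and between 61970 and 92969 FPKM in AML, with the lowest in AML 3. Of 9 B cell markers in the table, the summed level was 1.89 to 2.19 FPKM in WT, 1.92 and 5.98 FPKM in AML 1 and AML 2, and 65.7 FPKM in AML 3. The corresponding ranges for 12 monocyte and macrophage markers were 2385 to 2616 FPKM in WT and 2342 to 3549 FPKM in AML. Lyz2 made up nearly all of this in WT, and the other 11 genes of the list summed to 0.328 to 1.23 FPKM in WT and to 5.24, 8.13 and 456 FPKM in AML 1 to AML 3. Among them Tyrobp was at 0.128, 0.533 and 0.126 FPKM in WT and 4.85, 4.37 and 153 FPKM in AML. Within that list, Cd14 and Ly86 were at 0 in all WT libraries, and C1qa was at 54.1 FPKM in AML 3 and at most 0.0683 FPKM elsewhere. The summed level of 9 erythroid markers was 2710 to 3113 FPKM in WT and 2664 to 3388 FPKM in AML, and 11 neutrophil markers stayed between 2.18 and 4.76 FPKM in all libraries. For 11 T and NK cell markers it was 82.7 to 114 FPKM in WT and 113 to 121 FPKM in AML, most of it Ccl5 and Nkg7. The other 9 summed to 0.139 to 0.397 FPKM in WT and to 11.2, 6.56 and 22.4 FPKM in AML 1 to AML 3, and 7 of the 11 were higher in every AML library than in every WT library. They include Gzma, at 0, 0.353 and 0 FPKM in WT and 7.25, 4.61 and 8.90 FPKM in AML, and Cd2, Cd3g, Ncr1 and Prf1, which were at 0 in WT and between 0.0230 (Cd3g in AML 1) and 6.84 FPKM (Cd2 in AML 3) in AML. Groups without overlap were also found for 4 monocyte and macrophage markers (higher), 2 platelet markers (lower) and 1 erythroid marker in each direction. They were found for 0 of the B cell and neutrophil markers. Over the 4412 genes tested below, 6.14% had groups without overlap that were higher in AML and 12.8% had groups that were lower. Several of the markers, such as Cd3g, Ncr1 and Prf1, were too low to be tested, so these shares are no background for them. How many of all genes, low ones included, had such groups was not counted. The part of cells other than platelets in the values below was not tested. In bulk samples such as these, fewer cells of a type and less RNA per cell cannot be told apart.

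**Figure D1:**
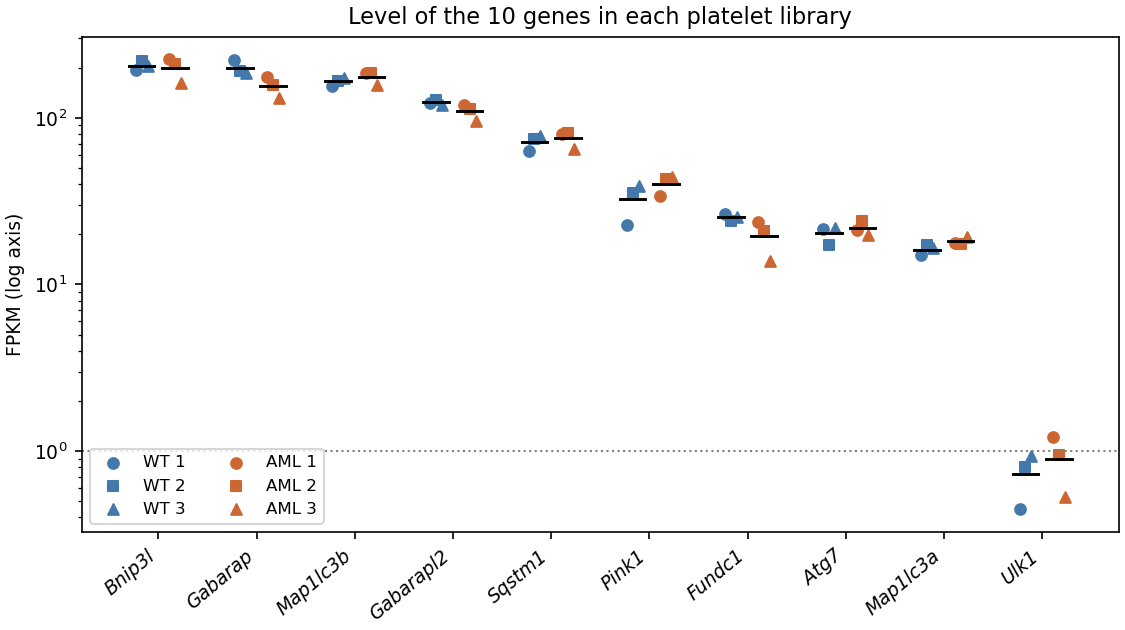
FPKM (log axis) of each of the 10 genes in the 3 WT and 3 AML libraries, ordered by mean level. Points are libraries, black bars are group means and the dotted line marks 1 FPKM. Bnip3l, Gabarap, Map1lc3b and Gabarapl2 lay at 95.5 FPKM or higher in every library, and Ulk1 lay near 1 FPKM.

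The genes spanned a wide range of levels in platelets. FPKM is a level per length and can be set side by side between genes. Bnip3l, at a mean of 202 FPKM over the 6 libraries, was the most abundant, and it ranked 203 among the 14975 genes. It was followed by Gabarap at 177 FPKM, Map1lc3b at 171 FPKM and Gabarapl2 at 117 FPKM. Sqstm1 was at 73.6 FPKM and Pink1 at 36.4 FPKM. Fundc1, Atg7 and Map1lc3a were close to each other, at 22.4, 21 and 17.2 FPKM. The ranges of Bnip3l, Gabarap and Map1lc3b over the libraries overlapped, so their order is not fixed beyond their spread. The median of the 9 genes was 73.6 FPKM, against 4.81 FPKM for all 4412 genes above the filter, and each of the 9 lay at or above 75.1% of those genes. Between 207 reads (Map1lc3a in WT 1) and 19031 reads (Map1lc3b in AML 3) stood behind each value of these 9 genes, and 34 to 105 reads behind those of Ulk1.

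Of the outer-membrane receptors of mitophagy, Bnip3l (Entrez gene 12177) lies on chromosome 14 of GRCm38 (the mm10 build), from 66985239 to 67008877 on the minus strand. Its level was 193, 218 and 204 FPKM in WT 1, WT 2 and WT 3 and 225, 209 and 163 FPKM in AML 1, AML 2 and AML 3. The groups overlapped, since AML 1 was the highest and AML 3 the lowest of all libraries. The log2 fold change (AML minus WT, on log2 of FPKM + 1) was -0.06 with a 95% interval from -0.41 to 0.30 (limma-trend, adjusted p = 0.897). Without AML 3 it was 0.08.

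Fundc1 (Entrez gene 72018), whose product is a receptor known from mitophagy under low oxygen, lies on chromosome X from 17556564 to 17572325 on the minus strand. Fundc1 was at 26.4, 24.1 and 25.4 FPKM in WT 1 to WT 3, and at 23.6, 21 and 13.9 FPKM in AML 1 to AML 3. All AML libraries thus lay below all WT libraries, with AML 3 farthest below. The mean was 25.3 ± 1.15 FPKM (SD, n = 3) against 19.5 ± 5.01 FPKM (SD, n = 3), and the log2 fold change was -0.39 with a 95% interval from -0.83 to 0.05. It did not pass the threshold (limma-trend, adjusted p = 0.522). The difference was -0.18 without AML 3 and -0.05 after correction for gene length and GC content.

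Pink1 (Entrez gene 68943), the kinase that builds up on damaged mitochondria, lies on chromosome 4 from 138313409 to 138326307 on the minus strand. Its level was 22.7, 35.6 and 38.9 FPKM in WT 1 to WT 3 and 34.1, 42.9 and 44.0 FPKM in AML 1 to AML 3. WT 1 was the lowest library and AML 3 the highest, and the groups overlapped. Pink1 had the largest positive log2 fold change of the 9 genes, 0.33 with a 95% interval from -0.16 to 0.82 (limma-trend, adjusted p = 0.557). Without WT 1 the log2 fold change of Pink1 was 0.10. Gm27646 and Mir7019 share 110 and 69 bases of its exons on the same strand, where reads cannot be told apart.

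Sqstm1 (Entrez gene 18412; chromosome 11, 50199366 to 50210827, minus strand) encodes p62, a receptor that binds ubiquitin on cargo and ATG8 on the membrane. It had 63.2, 74.7 and 78.0 FPKM in WT 1 to WT 3 and 79.8, 80.9 and 65.1 FPKM in AML 1 to AML 3. WT 1 and AML 3 were the lowest libraries and the groups overlapped, with a log2 fold change of 0.06 (95% interval -0.28 to 0.41; limma-trend, adjusted p = 0.873). Its exons share 580 bases with Mrnip on the opposite strand, and the SMART-Seq2 protocol does not mark strand.

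Among the ATG8 family, Gabarap (Entrez gene 56486; chromosome 11, 69991143 to 69994951, plus strand) was at 221, 190.5 and 187 FPKM in WT 1 to WT 3. It was at 176, 157 and 132 FPKM in AML 1 to AML 3, so that every AML library lay below every WT library. The mean was 200 ± 18.9 FPKM (SD, n = 3) in WT and 155 ± 21.9 FPKM (SD, n = 3) in AML platelets, and the log2 fold change was -0.37 with a standard error of 0.15. This was the smallest unadjusted p of the 9 genes, 0.0400 in limma-trend, and it did not pass after adjustment over all 4412 genes (adjusted p = 0.522). With each library scaled to its own recovered reads, Gabarap was at 209, 185 and 178 in WT and at 165, 152 and 166 in AML, on the FPKM scale, and the groups again did not overlap. Its log2 fold change was then -0.24, and it was -0.42 after correction for gene length and GC content.

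Gabarapl2 (Entrez gene 93739; chromosome 8, 111940703 to 111953612, plus strand), which encodes GATE-16, was at 123, 129 and 120.2 FPKM in WT 1 to WT 3 and at 119, 113 and 95.5 FPKM in AML 1 to AML 3. The groups did not overlap, but AML 1 lay only just under WT 3. The log2 fold change was -0.18 (95% interval -0.50 to 0.13; limma-trend, adjusted p = 0.597), and scaled to recovered reads it was -0.05, with overlapping groups. Without AML 3 the log2 fold change of Gabarapl2 was -0.09.

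Map1lc3b (Entrez gene 67443; chromosome 8, 121590361 to 121598760, plus strand) encodes LC3B, the protein most used to mark autophagosomes. Its level was 154, 167 and 175 FPKM in WT 1 to WT 3 and 185, 186 and 157 FPKM in AML 1 to AML 3. AML 1 and AML 2 lay above the WT libraries and AML 3 within them, with a log2 fold change of 0.09 (95% interval -0.22 to 0.40; limma-trend, adjusted p = 0.795). Its exons share 58 bases with Zcchc14 on the opposite strand. Map1lc3a (Entrez gene 66734; chromosome 2, 155276297 to 155278073, plus strand) encodes LC3A and was at 14.9, 17.1 and 16.5 FPKM in WT 1 to WT 3 and 17.7, 17.5 and 19.3 FPKM in AML 1 to AML 3. Here all AML libraries lay above all WT libraries, by a small margin, and the log2 fold change was 0.16 (95% interval -0.14 to 0.45; limma-trend, adjusted p = 0.616). After correction for gene length and GC content Map1lc3a came out below 0, at -0.11.

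Atg7 (Entrez gene 74244; chromosome 6, 114643097 to 114860614, plus strand), the enzyme that activates ATG8 and ATG12 proteins for attachment, was at 21.6, 17.2 and 21.9 FPKM in WT 1 to WT 3 and 21.3, 24.1 and 19.7 FPKM in AML 1 to AML 3. The groups overlapped, with a log2 fold change of 0.10 (95% interval -0.25 to 0.44; limma-trend, adjusted p = 0.80). Ulk1 (Entrez gene 22241; chromosome 5, 110784488 to 110810097, minus strand), the kinase that starts autophagosome formation, was at 0.446, 0.80 and 0.933 FPKM in WT 1 to WT 3 and 1.22, 0.950 and 0.529 FPKM in AML 1 to AML 3. The groups of Ulk1 overlapped, and with no filter on low values its log2 fold change was 0.13 (limma-trend, adjusted p = 0.819).

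**Figure D2:**
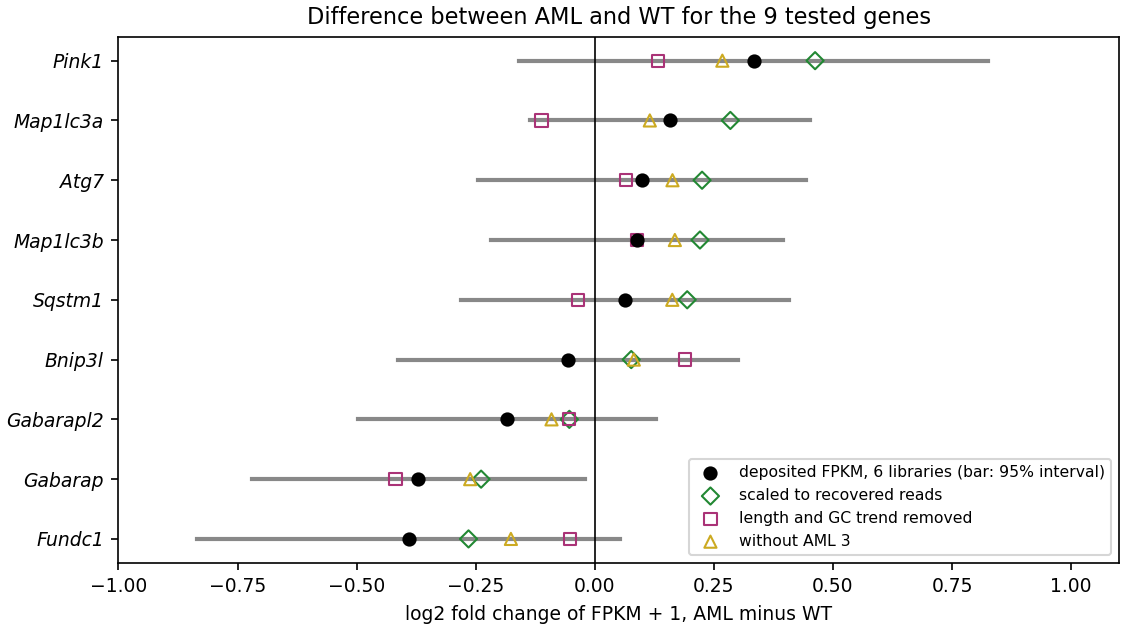
Log2 fold change (AML minus WT, FPKM + 1) of the 9 tested genes. Black points are the deposited FPKM values of all 6 libraries with their 95% interval, and open symbols are values scaled to recovered reads, values corrected for gene length and GC content, and values without AML 3. The interval of Gabarap alone lies fully below 0, and Gabarap stays at -0.24 or lower in all of them.

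Of the 9 tested genes, 0 passed an adjusted p of 0.05 in either direction. The share past this threshold over all 4412 genes was 0.0227% higher and 0% lower in AML platelets, which is 1 gene, Gzma. At an unadjusted p under 0.05, 0 of the 9 were higher and 1, Gabarap, was lower, where the shares over all tested genes were 2.56% and 6.53%. With so few genes passing, a count of 0 or 1 among 9 stands near the background. The groups did not overlap for 1 gene that was higher (Map1lc3a) and 3 that were lower (Gabarap, Gabarapl2 and Fundc1), against 6.14% and 12.8% of all tested genes. When each library was scaled to its recovered reads, the counts were 2 higher (Sqstm1 and Map1lc3b) and 2 lower (Gabarap and Fundc1), against 10.9% and 9.77%. After correction for gene length and GC content they were 1 higher (Bnip3l) and 1 lower (Gabarap), against 4.94% and 8.28%. Gabarap was the member with separate groups under all 3 scalings, and how many of all tested genes did the same was not counted. Of the 9 genes, 5 had a log2 fold change above 0, as had 41.5% of all tested genes, and their median was 0.06 against -0.06.

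The scale of the libraries differed. AML 3 was divided by a library size 1.31 times its recovered reads, and the other libraries by 0.983 to 1.01 times. Scaling to the recovered reads raised the median tested gene of AML 3 by 0.28 on the log2 scale, and moved the median log2 fold change of all tested genes from -0.06 to 0.05. On that scale the log2 fold changes were 0.46 for Pink1, 0.28 for Map1lc3a, 0.23 for Atg7, 0.22 for Map1lc3b, 0.19 for Sqstm1 and 0.08 for Bnip3l. Gabarapl2, Gabarap and Fundc1 were then at -0.05, -0.24 and -0.27, so the order of the 9 genes was as before while their position against 0 moved.

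**Figure D3:**
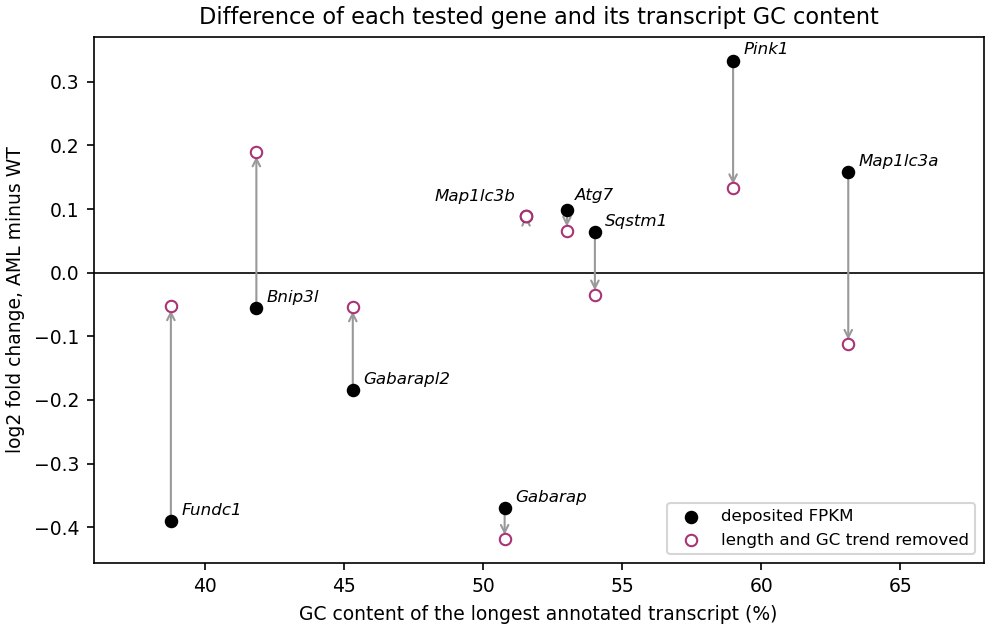
Log2 fold change of the 9 tested genes (y axis, AML minus WT) against the GC content of their longest annotated transcript (x axis, percent). Filled points are the deposited values, open points the values after correction of each library for gene length and GC content, and arrows join them. Fundc1, at 38.8% GC, moves from -0.39 to -0.05, and Gabarap, at 50.8% GC, stays low.

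The libraries also differed in how levels related to the GC content of transcripts. Taken over the tested genes of a library, which are no replicates, Spearman's rho of GC content with that library's deviation from the mean was -0.30, -0.40 and -0.31 in WT 1 to WT 3 and -0.05, 0.31 and 0.49 in AML 1 to AML 3. This gradient moved with the groups, so a difference of GC-poor against GC-rich genes cannot be told apart from it. Fundc1 at 38.8% GC, Bnip3l at 41.9% and Gabarapl2 at 45.3% were the most GC-poor of the 9, and Pink1 at 59.0% and Map1lc3a at 63.1% the most GC-rich. With the trends removed, Fundc1 and Gabarapl2 came to -0.05 each, Bnip3l to 0.19, Pink1 to 0.13 and Map1lc3a to -0.11. Gabarap, with 50.8% GC near the median of 49.8% for tested genes, went the other way, from -0.37 to -0.42. Map1lc3b, at 51.5% GC, kept a log2 fold change of 0.09.

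**Figure D4:**
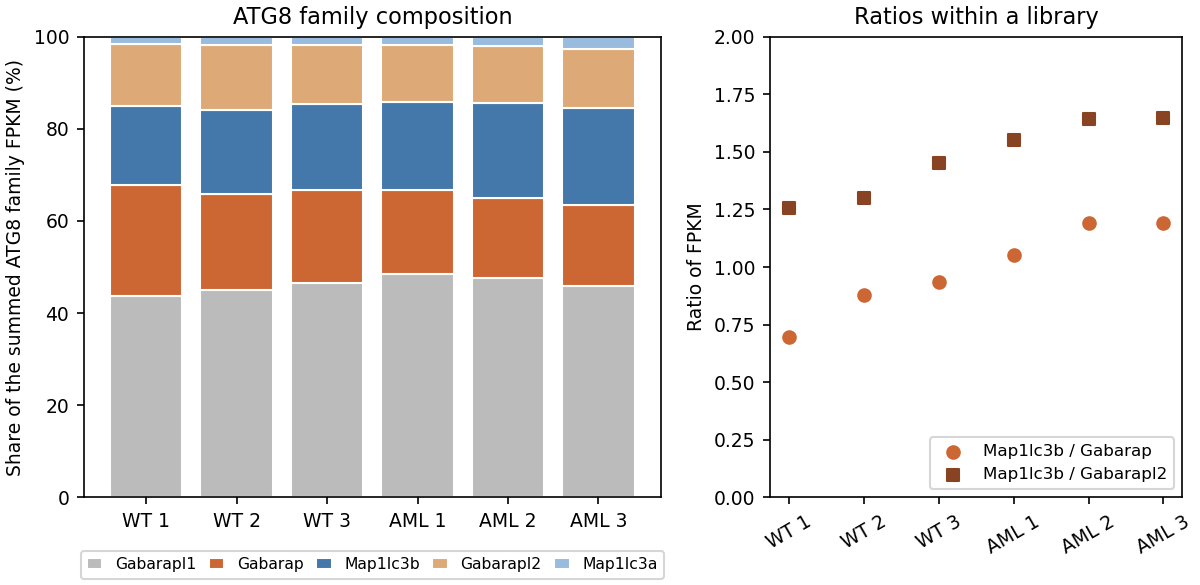
Left, share (%) of each ATG8 family gene in the summed FPKM of the family in each library, with bars from 0 to 100%. Right, ratio of Map1lc3b FPKM to Gabarap and to Gabarapl2 FPKM in each library. The ratio is higher for both partners in each AML library than in each WT library.

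Ratios of genes within a library do not depend on library scaling. The 5 ATG8 family genes summed to 911, 917 and 934 FPKM in WT 1 to WT 3 and 965, 903 and 747 FPKM in AML 1 to AML 3. The largest share was that of Gabarapl1, which is not one of the 10 genes, with 43.6% to 46.6% in WT and 45.9% to 48.4% in AML libraries. Gabarap held 24.3%, 20.8% and 20.0% in WT 1 to WT 3 and 18.2%, 17.3% and 17.7% in AML 1 to AML 3. Map1lc3b held 16.9%, 18.2% and 18.7% in WT and 19.2%, 20.6% and 21.1% in AML. In every AML library Map1lc3b was thus above Gabarap, and in every WT library below it. The ratio of Map1lc3b to Gabarap was 0.697, 0.877 and 0.933 in WT 1 to WT 3 and 1.05, 1.19 and 1.19 in AML 1 to AML 3, with means of 0.836 ± 0.123 (SD, n = 3) and 1.14 ± 0.0793 (SD, n = 3). The ratio of Map1lc3b to Gabarapl2 was 1.25, 1.30 and 1.45 in WT and 1.55, 1.64 and 1.65 in AML. Among the mitophagy receptors, the ratio of Bnip3l to Fundc1 was 7.31, 9.06 and 8.05 in WT and 9.53, 9.97 and 11.7 in AML libraries, while that of Bnip3l to Pink1 overlapped, at 5.25 to 8.50 in WT and 3.70 to 6.59 in AML. These ratios were chosen after their values were seen and were not tested. GC content was 51.5% for Map1lc3b, 50.8% for Gabarap, 45.3% for Gabarapl2, 41.9% for Bnip3l and 38.8% for Fundc1, and its part in these ratios was not tested.

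The promoters of Pink1 and Gabarapl2 are shown as examples from a mitophagy gene and an ATG8 gene whose start sites in RefSeq and GENCODE lie close together. The 250 bases before the RefSeq start (GRCm38.p6) are printed 5′ to 3′ on the strand of the gene, with capitals for GC boxes (GGGCGG on either strand) and for the ETS site CTTCCGG (either strand). The Pink1 window is chr4:138326297-138326546 on the minus strand, and the Gabarapl2 window is chr8:111940453-111940702 on the plus strand.
Pink1: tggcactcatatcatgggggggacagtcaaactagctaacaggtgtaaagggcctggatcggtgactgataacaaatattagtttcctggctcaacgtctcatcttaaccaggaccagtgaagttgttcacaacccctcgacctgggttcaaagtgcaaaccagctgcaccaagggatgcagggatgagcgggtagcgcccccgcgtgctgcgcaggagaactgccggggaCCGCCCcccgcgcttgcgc
Gabarapl2: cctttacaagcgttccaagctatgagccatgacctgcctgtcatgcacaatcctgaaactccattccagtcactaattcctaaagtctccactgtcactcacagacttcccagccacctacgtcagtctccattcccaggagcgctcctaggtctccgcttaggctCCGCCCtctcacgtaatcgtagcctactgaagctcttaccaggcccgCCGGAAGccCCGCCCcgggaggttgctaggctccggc

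The RefSeq table held promoters for 8 of the 10 genes. Both printed windows had 57.2% GC, against a median of 52.4% over 32851 promoters. A GC box was in 5 of the 8 windows (Pink1, Ulk1, Gabarapl2, Map1lc3b and Sqstm1) and in 32.7% of all promoters, with 1 in Pink1 and 2 in Gabarapl2. CACGTG, the core of the element bound by the autophagy regulator TFEB, was in 1 of the 8 windows (Atg7) and in 6.02% of all promoters. That Atg7 window, 114670846 to 114671095, lies inside the gene as placed above, well after its GENCODE start at 114643097. The Fundc1 window (17572008 to 17572257) and most of the Gabarap window (69991120 to 69991369) also lie inside the GENCODE genes. CTTCCGG was in 1 window (Gabarapl2) and in 6.91% of all. GTAAACA, a site of FOXO factors, was in 0 of the 8 windows and in 3.17% of all, and TGACNNNGC, the antioxidant response element, in 0 of the 8 and in 10.2% of all. Matches to these letters describe the windows only.

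**Figure D5:**
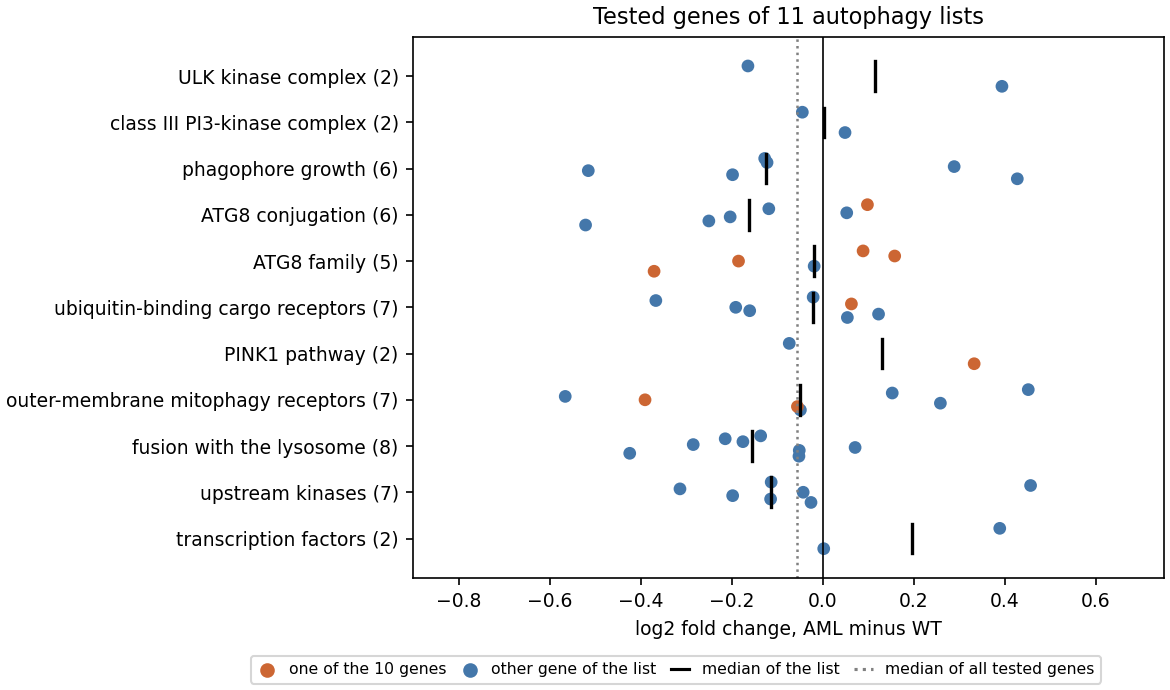
Log2 fold change (x axis, AML minus WT) of the tested genes of 11 autophagy lists, with the number tested in brackets. Orange points are among the 10 genes, blue points are other genes, black bars are list medians and the dotted line is the median of all tested genes. No point passed the adjusted threshold, and the points of most lists lie on both sides of 0.

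The wider autophagy machinery was followed with 96 genes in 11 lists, of which 54 were tested, the 9 genes above included. In limma-trend, 0 of the 54 passed an adjusted p of 0.05 in either direction, and at an unadjusted p under 0.05 there were 1 higher and 3 lower, which stands near the 2.56% and 6.53% of all tested genes. The median of the 54 was -0.05 on the log2 scale, where that of the whole tested table was -0.06. The 45 that are not among the 10 genes had a median of -0.07. The list of 15 genes for fusion with the lysosome had 8 tested genes, 7 of them with a log2 fold change below 0 and a median of -0.16. Of the upstream kinases 6 of 7 tested genes lay below 0, of the ATG8 conjugation genes 4 of 6, with a median of -0.16, and of the transcription factors 0 of 2. Over all tested genes 58.5% lay below 0.

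Next to Gabarap, 3 genes had an unadjusted p under 0.05 and did not pass after adjustment (adjusted p = 0.522 each, limma-trend). Fundc2, a paralog of Fundc1, was at 59.2, 49.3 and 51.4 FPKM in WT 1 to WT 3 and 47.1, 37.1 and 25.7 FPKM in AML 1 to AML 3, a log2 fold change of -0.57 that came to -0.14 after correction for gene length and GC content and to -0.34 without AML 3. Both FUNDC genes thus lay lower in all AML libraries, as did 12.8% of all tested genes. For both, the groups overlapped after correction for gene length and GC content. Atg101, a subunit of the ULK complex, was at 3.04, 2.94 and 3.26 FPKM in WT and 3.95, 3.86 and 5.39 FPKM in AML, a log2 fold change of 0.39 (0.19 after the same correction). Atg10, which attaches ATG12 to ATG5, was at 4.12, 5.29 and 5.53 FPKM in WT and 2.98, 4.51 and 2.25 FPKM in AML, with overlapping groups and a log2 fold change of -0.52 (-0.24 after that correction).

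By step of the pathway, the ULK complex was low in platelets. Atg13, its most abundant gene over the 6 libraries together, was at 4.58 ± 0.349 FPKM (SD, n = 3) in WT and 3.99 ± 0.430 FPKM (SD, n = 3) in AML, and 2 of 5 genes were tested. Of the class III PI3-kinase complex, Becn1 (Beclin 1) was at 48.9 and 50.9 FPKM in WT and AML on average and Nrbf2 at 3.21 and 3.07 FPKM, while the other 6 of 8 genes were below 1 FPKM. For growth of the membrane, Vmp1 had means of 132 and 96.0 FPKM in WT and AML, with 59.2 FPKM in AML 3 (log2 fold change -0.52), and Wdr45 had 9.56 and 11.9 FPKM (0.29). Atg12, the other protein that ATG7 activates, was at 13.1 and 11 FPKM (-0.25). Gabarapl1 was at 415 and 413 FPKM (-0.02), the highest mean of the 96 genes. Scaled to recovered reads, Gabarapl1 was higher in every AML library, with a log2 fold change of 0.11.

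Of the other cargo receptors, Tollip was at 57.9 and 56.8 FPKM (log2 fold change -0.02). Fkbp8, an outer-membrane receptor, was at 48.0 ± 5.04 FPKM (SD, n = 3) in WT and 57.5 ± 2.55 FPKM (SD, n = 3) in AML, a log2 fold change of 0.26. Of the lysosomal membrane proteins, Lamp1 had 237 and 230 FPKM (-0.05) and Lamp2 had 138 and 106 FPKM (-0.42), with AML 3 at 69.1 FPKM. The AMPK subunits Prkab2 and Prkab1 were at 46.4 and 40.7 FPKM (-0.20) and at 44.3 and 40.7 FPKM (-0.11), and the transcription factors Foxo3 and Tfe3 at 6.13 and 6.08 FPKM (0.00) and at 1.17 and 1.80 FPKM (0.39). The largest differences among tested genes not yet named were those of Stk11 (LKB1, which activates AMPK), at 1.13 and 1.98 FPKM (0.46), Phb2 (prohibitin 2), at 0.639 and 1.37 FPKM (0.45), and Atg9a, at 0.43 on the log2 scale, and these were named after their values had been seen. The groups of Phb2 overlapped, at 0.802, 0.707 and 0.407 FPKM in WT 1 to WT 3 and 0.546, 1.03 and 2.52 FPKM in AML 1 to AML 3. Only AML 2 and AML 3 lay above 1 FPKM, and AML 3 was far above the rest. None of the genes in this paragraph passed (limma-trend, smallest adjusted p of the 54 genes 0.522).

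Among the genes of the PINK1 list, 8 of 10 were below 1 FPKM, and the one tested beside Pink1 was Usp8, a deubiquitinase, at 2.14 and 2.00 FPKM in WT and AML on average. Bnip3, the paralog of Bnip3l, was at 1.09 and 1.03 FPKM on average, and it was named after its values had been seen.

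The genes with a profile most like that of Bnip3l, the most abundant of the 10, were Triap1, Ntan1, Litaf, Fam32a and Dgkg. Likeness was the root mean square difference of log2(FPKM + 1), centred on each gene's mean, over the 6 libraries, and it was 0.020 for Triap1, 0.029 for Ntan1, 0.030 for Litaf, 0.033 for Fam32a and 0.038 for Dgkg. Triap1 was at 138, 157 and 141 FPKM in WT 1 to WT 3 and 159, 147 and 116 FPKM in AML 1 to AML 3, with AML 1 highest and AML 3 lowest, as for Bnip3l.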

How the data were processed

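Reads of platelet RNA (SMART-Seq2 cDNA, Nextera XT libraries) were mapped by the authors to mm10 with STAR and compared with DESeq2, and FPKM values of 14975 genes in 6 libraries were deposited. The counting program and annotation are not given in the sources used here. Every column matched a sample by its title. Platelets had been purified by depletion of CD45 and Ter119 positive cells.

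The groups were compared with limma-trend (limma 3.58.1, R 4.3.3) on log2(FPKM + 1) over the genes whose mean reached 1 FPKM, with no covariate. Benjamini-Hochberg adjustment ran over all of these genes and the threshold was 0.05. A fold change on this scale understates that of low genes. The count model of the study was not used, since FPKM values are not counts. The test was tried on simulated data first, with changes larger than those of the autophagy genes and a spread taken from the WT libraries. It therefore does not tell how often differences as small as theirs would be found. Intervals are 95% and come from the same fit.

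Union exon lengths from GENCODE M21 (GRCm38) gave whole reads (within 0.02) for 85.2% of values, zeros included. Among values above 0 with low read numbers the share was 81.9% to 82.9% per library. For Map1lc3b and Atg7 the values were whole with lengths of 5184 and 5273 bases in place of 7517 and 6968. Recovered reads served for depth, scaling and limma-voom and are estimates whose precision covers counting error only.

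The 10 genes, the 11 pathway lists and the 6 marker lists were chosen with earlier results of these data known. Also named were pathway genes with an unadjusted p under 0.05 (at most 8), the 2 most abundant of each list, and the 5 genes nearest to the most abundant of the 10. Alternatives, 15 in all, were no filter, a mean of at least 5 FPKM, a pseudocount of 0.1, scaling to recovered reads, quantile normalization, removal of loess trends with length and GC content, limma-voom, the replicate number as a block, array weights and each library left out. A result for 1 gene of the lists is not reported here.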

Additional observations from a re-analysis of the deposited data

How the results depend on the processing

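Gabarap, Gabarapl2 and Fundc1 had a log2 fold change below 0, and Pink1 and Map1lc3b one above 0, in all 15 alternatives, and 0 of the 10 genes and 0 of the 96 pathway genes passed the adjusted threshold in any of them. The log2 fold change of Gabarap was between -0.47 and -0.24 (adjusted p from limma 0.202 to 0.747), with an unadjusted p under 0.05 in 10 of the 15. That of Fundc1 was between -0.54 and -0.05.

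The sign turned for Bnip3l, from -0.055 to 0.0765 scaled to recovered reads, 0.0414 with quantile normalization, 0.19 with the length and GC trends removed and 0.0239 with array weights. With these trends removed it also turned for Sqstm1, to -0.0344, and Map1lc3a, to -0.11. With each library left out in turn, the log2 fold change was between -0.15 and 0.0819 for Bnip3l (0.0819 without AML 3), between -0.0263 and 0.16 for Sqstm1 (-0.0263 without WT 1) and between -0.0079 and 0.16 for Atg7 (-0.0079 without WT 2). The cause was not tested.

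The count of all genes past the adjusted threshold, 1 in the analysis reported, was 0 with no filter, with a mean of at least 5 FPKM, scaled to recovered reads and in limma-voom, 2 with array weights, and between 0 and 2 with a library left out (0 without WT 1 or WT 3, 2 without AML 3). With no filter, 497 genes were higher and 373 lower at an unadjusted p under 0.05. The count of the 10 genes at an unadjusted p under 0.05 was 3 scaled to recovered reads (Gabarap, Map1lc3b and Fundc1), where 252 of the 4412 genes were higher and 257 lower at that p, against 113 and 288 as reported, and between 0 and 2 with a library left out. With the replicate number as a block, 1 gene passed the adjusted threshold and 0 of the 10 genes had an unadjusted p under 0.05. Deviations of same-numbered libraries correlated across genes at -0.04, -0.12 and -0.17. With 3 libraries per group and AML 3 far from the rest, these values cannot show whether same-numbered libraries were prepared together. The labels give no pairing. In the fit with array weights the estimation of weights gave a convergence warning.

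Counting error is small for 9 of the genes, with at least 207 reads in every library. The intervals rest on the spread between 3 libraries per group, which limma-trend moderates toward that of genes of similar level. Ulk1 had as few as 34 reads.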
